A study of Drosophila melanogaster with 3 samples.

Results

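The muscle structural genes and their regulator Mef2 were examined for occupancy by CG44002 in the whole Drosophila prepupa. They comprise 10 listed genes, Mef2, Tm1, Tm2, sls, Mhc, Act57B, Act87E, Act88F, up and bt, out of 13945 annotated protein-coding genes. They were taken by gene name, from a list chosen with earlier results of these data known. The data are from chromatin immunoprecipitation followed by sequencing (ChIP-seq) with an anti-GFP antibody. There was 1 group of 3 biological replicates and no contrast between groups, so every value below is a description and no test was run. All 3 replicates were whole prepupae, males and females pooled and of unknown age, from the line labelled CG34406-GFP, which stably expresses CG44002 with GFP at its C-terminal end from an inserted transgene. The antibody label also reads CG34406, whereas the other labels name CG44002 as the tagged protein and GFP as the target of the antibody. No source used here gives the promoter that drives the fusion or the cells that express it. No tissue was isolated, so binding in few cells and weak binding in many cannot be told apart. Peak lists give no read depth, and the precision rests on the 3 replicates. The authors also deposited a list filtered on the irreproducible discovery rate (IDR), which scores the reproducibility of ranked peaks, and it held 7089 peaks. Each peak was ranked within its own list by the authors' signal value, with rank 1 the strongest, and the "top N" of a replicate are its 7089 strongest peaks.

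The contractile unit of muscle, the sarcomere, is built from thin filaments of actin, tropomyosin and troponin that slide along thick filaments of myosin. Giant titin-like proteins tie the thick filaments to the Z-disc, where the thin filaments are anchored. Mef2 is a MADS-box transcription factor that binds an AT-rich element and is needed for muscle differentiation, and many sarcomere genes are among its known targets. In the prepupa, larval muscles start to break down and the myoblasts of the adult muscles are present. Several of these genes have alternative starts, and the tropomyosin gene Tm1 makes muscle and cytoplasmic forms.

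The sequences around 4 summits, the peak positions given by the authors, show the DNA that was occupied at these genes, and 2 windows without a summit are set beside them. Each is 160 bp of the release 6 genome (RefSeq), read 5′ to 3′ along the gene. The capitals mark TATAAA on either strand or the Mef2 consensus, a string of 10 bases. The first 3 are centred on the summits nearest to starts of Tm1 (chr3R:15281036-15281195, plus strand), sls (chr3L:2115827-2115986, minus strand) and Act87E (chr3R:13425533-13425692, plus strand). The next is centred on a summit inside a Tm1 intron (chr3R:15293073-15293232, plus strand). The last 2 are centred 370 bp upstream of the first starts of Act88F (chr3R:15439519-15439678, plus strand) and Mhc (chr2L:16766116-16766275, plus strand), the same distance as the Act87E summit.
Tm1 start: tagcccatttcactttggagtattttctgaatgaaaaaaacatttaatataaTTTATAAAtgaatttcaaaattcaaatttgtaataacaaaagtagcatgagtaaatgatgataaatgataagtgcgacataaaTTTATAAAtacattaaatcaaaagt
sls start: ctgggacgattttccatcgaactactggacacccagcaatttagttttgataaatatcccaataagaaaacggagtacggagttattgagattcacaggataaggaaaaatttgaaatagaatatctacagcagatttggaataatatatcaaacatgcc
Act87E start: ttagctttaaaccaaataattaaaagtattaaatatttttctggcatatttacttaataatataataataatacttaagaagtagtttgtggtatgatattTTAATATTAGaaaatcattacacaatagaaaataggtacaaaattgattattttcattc
Tm1 intron: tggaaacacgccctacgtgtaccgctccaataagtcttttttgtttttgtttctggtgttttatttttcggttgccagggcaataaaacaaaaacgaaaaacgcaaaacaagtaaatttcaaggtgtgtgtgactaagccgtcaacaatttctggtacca
Act88F upstream: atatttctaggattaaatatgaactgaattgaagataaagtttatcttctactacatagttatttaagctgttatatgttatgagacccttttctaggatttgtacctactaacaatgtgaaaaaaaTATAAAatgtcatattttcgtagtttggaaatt
Mhc upstream: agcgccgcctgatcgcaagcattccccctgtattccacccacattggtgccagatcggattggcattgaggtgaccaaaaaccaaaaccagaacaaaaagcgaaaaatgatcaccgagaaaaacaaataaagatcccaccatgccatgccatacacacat
Over the 160 bp, A and T made up 78.8% at the Tm1 start, 65% at the sls start, 81.9% at the Act87E start and 61.2% in the Tm1 intron. The same share was 75% upstream of Act88F and 53.1% upstream of Mhc. At the same distance upstream of up, bt and Tm2, also without a summit and not printed, it was 63.8%, 61.9% and 59.4%. The Act88F window, with no summit in the IDR list, was thus richer in A and T than the occupied sls and Tm1 intron windows. The Mhc, up, bt and Tm2 windows were less rich than the windows at the starts of Tm1, sls and Act87E. Those of up and bt were richer than the occupied Tm1 intron window. No such window is given for Act57B or for Mef2, whose start summit held 50% A and T over 100 bp. The order thus holds only for the windows chosen.

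CG44002 summits were found at 4 of the 10 genes, Mef2, Tm1, sls and Act87E, and at none of the starts or bodies of Tm2, Mhc, Act57B, Act88F, up and bt in the IDR list. A gene was called when any of its annotated starts had an IDR summit no more than 500 bp away. By this rule, 40% of the 10 genes and 19.5% of all coding genes were called. Genes with more starts can meet the rule more easily, and the 10 genes have 35 annotated starts. The 19.5% is not matched for the number of starts, so the 2 shares are not like for like. With the whole gene body plus 5 kb on each side as the window, the same 4 genes held a summit, 40% against 50.8% of all coding genes. Of the 6714 coding genes with windows as long as these, from 12.2 to 85.9 kb, 59.5% held one. The windows of the 10 genes held 14 summits in all, 0.197% of the IDR list. Mef2 had 7 of them, Tm1 had 3, and sls and Act87E had 2 each. Together this made 0.0413 summits per kb, against 0.053 per kb over the 6 chromosome arms. The windows include 62.1 kb at bt on chromosome 4, which held 6.68 summits per Mb against 53 per Mb over all arms. The 2 densities are not matched by chromosome.

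In the replicates' own top N lists, the windows held 14, 11 and 11 summits in replicates 1, 2 and 3, or 12 ± 1.73 (SD, n = 3). By the 500 bp rule, replicate 1 called Mef2, Tm1, sls and Act87E, replicate 2 called Tm1, sls and Act87E, and replicate 3 called Mef2, Tm1 and sls. This gave 3.33 ± 0.577 genes per replicate (SD, n = 3), while 20.8%, 20.7% and 20% of all coding genes were called in replicates 1, 2 and 3. Tm1 and sls were called in all 3 replicates. Requiring support from both other replicates left 2 of the 10 genes, Tm1 and sls, without replicate 1, and 7 of the 14 summits. Without replicate 3 it left 9 summits.

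**Figure D1:**
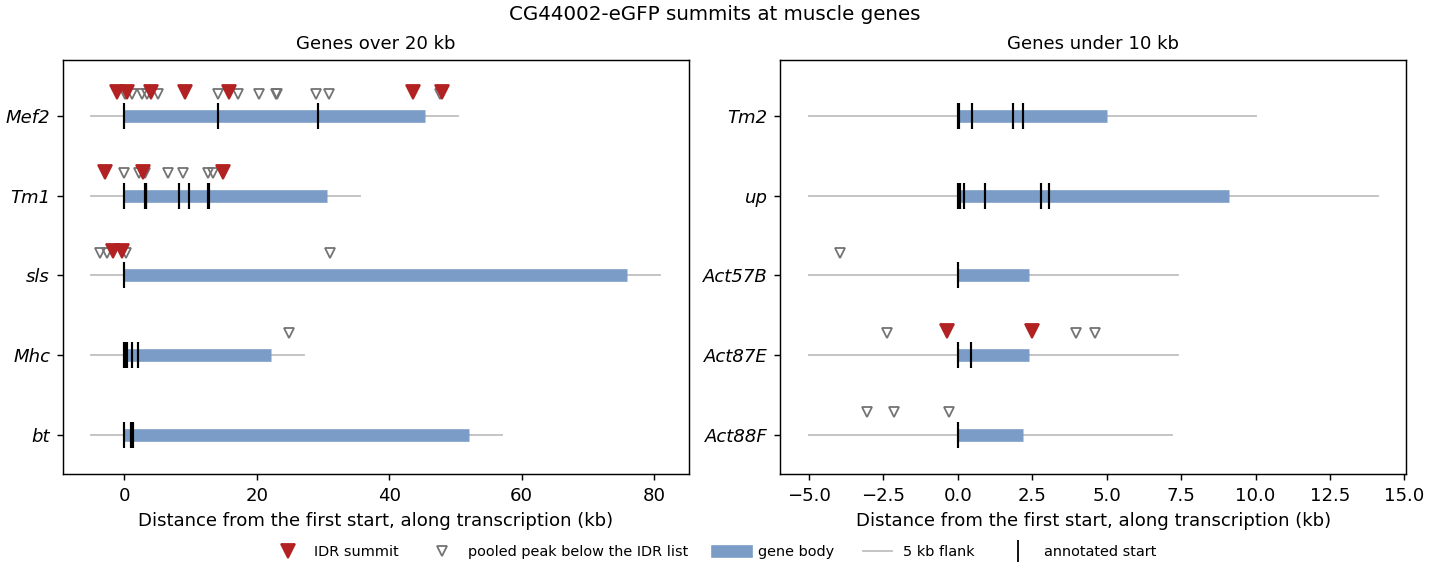
Positions of peak summits along the 10 genes, drawn from the first annotated start along the direction of transcription (x axis, kb), with genes over 20 kb on the left and genes under 10 kb on the right. Filled triangles are the 14 IDR summits, open triangles pooled peaks ranked below the IDR list, blue bars gene bodies, grey lines the 5 kb flanks and black ticks annotated starts. Of the 7 summits of Mef2, 5 lie in the gene body, whereas both summits of sls lie upstream of its start.

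Mef2 carried the most summits, and most of its strongest ones lay in introns and around a neighbouring gene. The gene (FBgn0011656, 2R, 9913496 to 9958858, minus strand) has 3 annotated starts, used by 2, 1 and 8 transcripts in the order of transcription. In the long first intron of Mef2-RF and Mef2-RH, summits fell on both sides of the second start. The strongest of them was 4917 bp upstream of the second start (rank 1156) and ranked 1301, 1135 and 1246 in replicates 1, 2 and 3, close together. The next was 4015 bp downstream of the first start (rank 1571), at ranks 2299, 1589 and 1065. The last of the 3 was 1780 bp downstream of the second start (rank 2567), in the 5′ UTR exon of Mef2-RG and in the same first intron of Mef2-RF and Mef2-RH. It ranked 2686, 1725 and 6305, so it was weaker in replicate 3 than in the others.

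The summit by which Mef2 met the start rule was weak. It lay 379 bp downstream of the first start, in the first exon of Mef2-RF and Mef2-RH, at rank 5460 and at 5304, 7626 and 6944 in replicates 1, 2 and 3. Replicate 2 placed it outside its top N. The third start, which serves 8 of the 11 transcripts, had its nearest IDR summit 13369 bp upstream, and the nearest pooled peak, 246 bp upstream, ranked 10305, below the IDR list. At the far end of the gene, a summit in the 3′ UTR of Mef2-RC and Mef2-RF ranked 4702, and 3524, 7864 and 6216 in the replicates. The start nearest to it, 4386 bp away, was that of the neighbouring gene Etf-QO.

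The remaining 2 summits in the Mef2 window lay at the starts of other genes. The strongest of all 14, at rank 46 with a signal value of 1299, lay 1067 bp upstream of the first Mef2 start. It was 153 bp upstream of a start of Pal1, which encodes an enzyme that amidates peptides, and 376 bp downstream of another Pal1 start. It was also 193 bp upstream of Pdrg1. Its ranks of 66, 45 and 36 put it near the top of every replicate list. Pal1 is transcribed away from Mef2. At the other end, a summit 43 bp downstream of the start of Etf-QO, an electron transfer enzyme of mitochondria, lay 2560 bp past the end of Mef2. It had rank 6571, ranked 9846 and 2879 in replicates 1 and 3, and was found in no peak of replicate 2.

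The tropomyosin genes Tm1 and Tm2 are neighbours on 3R, both on the plus strand, and summits were found at Tm1 alone. Tm1 (FBgn0003721, 15278220 to 15308779) has 8 annotated starts. A summit at 15281116 lay 255, 416 and 434 bp upstream of 3 of these starts, which together serve 11 of its 18 transcripts, and inside the first intron of Tm1-RT. It had rank 1705 and ranked 2157, 1566 and 1710 in replicates 1, 2 and 3, within the top N of each. A second summit, at 15293153, was 2207 bp downstream of the last start, in the first intron of Tm1-RA, Tm1-RC, Tm1-RQ and Tm1-RR and in the third intron of 12 other transcripts. It was less even, with rank 4788 and ranks 4995, 11412 and 3175 in the replicates, and replicate 2 placed it outside its top N.

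The strongest summit in the Tm1 window again lay nearest to the starts of other genes. It ranked 235, and 239, 227 and 220 in the replicates, and lay 2846 bp upstream of the first Tm1 start. It was 133 bp upstream of Cp190, which encodes an insulator protein, and 148 bp upstream of CG4338. Tm2 (FBgn0004117, 15310193 to 15315197) had no IDR or pooled peak in its window. The nearest IDR summit, at rank 5755, lay 7.83 kb downstream of the last of its 5 starts and 5010 bp past its end, 10 bp outside the window, so the 5 kb limit decided this count for Tm2. In the replicates' full lists of 30000 peaks, its window held 2, 2 and 1 peaks, the strongest at rank 14137. The gene up (FBgn0004169, X, 13593474 to 13602578, minus strand), the gene for troponin T, which couples tropomyosin to the troponin complex, had no peak in its window in any replicate or pooled list, and its nearest IDR summit was 14.3 kb from a start.

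The titin-like genes differed, with an IDR summit just upstream of the sls start and no IDR or pooled peak in the bt window. All 13 transcripts of sls (FBgn0086906, 3L, 2039681 to 2115611, minus strand), which encodes Sallimus, begin at 1 annotated start. A summit lay 296 bp upstream of it, at 2115907, with rank 2933, and ranked 3178, 2887 and 3194 in replicates 1, 2 and 3. This is among the most even of the 14 summits, with ranks of 3086 ± 173 (SD, n = 3). The second sls summit, 1667 bp upstream, was near the end of the IDR list at rank 7047, and in no replicate's top N (ranks 7348, 8029 and 11278). The start nearest to it, 1220 bp away, was that of another annotated gene. The 75.9 kb of the sls body held no IDR summit. Of the 5 genes here with bodies of 20 kb or more, Mef2 and Tm1 held a summit in the body, 40% against 60.9% of the 1013 coding genes of that length. Over all lengths, 20% of the 10 genes did so and 14% of all coding genes.

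The gene bt (FBgn0005666, 4, 724400 to 776474, plus strand) encodes projectin, a titin-like protein of the thick filament. Its window spanned 62.1 kb, and the nearest IDR summit was 64.3 kb from a start. It lies on chromosome 4, which is largely heterochromatic and held 9 IDR summits, 6.68 per Mb. On that chromosome 18.8% of 80 coding genes had a summit in body plus 5 kb, and the median distance from a coding gene to its nearest summit was 49.1 kb, against 6.35 kb over all arms. Replicate 2 listed 6 peaks in the bt body, 5 of them in coding exons, at ranks from 14582 to 25421, and replicates 1 and 3 listed 0. These low-ranked peaks were thus seen in 1 library.

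Mhc, the gene of the muscle myosin heavy chain (FBgn0264695, 2L, 16766566 to 16788766, plus strand), had its nearest IDR summit 45.7 kb upstream of its first start. Its only pooled peak, at rank 19152, lay 116 bp from the start of the neighbouring CG17928. The best ranks in its window were 23784, 19154 and 17359 in replicates 1, 2 and 3, all far below the top N.

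Of the 3 actins among the 10 genes, which encode nearly the same protein, summits were listed at Act87E and not at Act57B or Act88F. Act79B, another muscle actin, had no IDR summit in its window. Act87E (FBgn0000046, 3R, 13425983 to 13428375, plus strand) had a summit 370 bp upstream of its first start, at 13425613, with rank 5831, and ranked 5177, 6137 and 8707 in the replicates. A second summit, 113 bp past the end of the gene at 13428488, ranked 4673, and 5326, 4141 and 7310 in the replicates. Both lay in the top N of replicates 1 and 2 and outside that of replicate 3. No source used here says how reads shared between actin copies were placed. Both summits lie outside the gene body. Act88F (FBgn0000047, 3R, 15439969 to 15442177, plus strand), the flight muscle actin, had 3 pooled peaks below the IDR list. Of these, the peak 286 bp upstream of its start ranked 29539, near the end of the pooled list, and the strongest, 2128 bp upstream, ranked 11937. Act57B (FBgn0000044, 2R, 20944021 to 20946431, plus strand), an actin of larval muscle, had 1 pooled peak 3955 bp upstream at rank 9466. It ranked 11147, 8078 and 12548 in replicates 1, 2 and 3, in the top N of none.

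**Figure D2:**
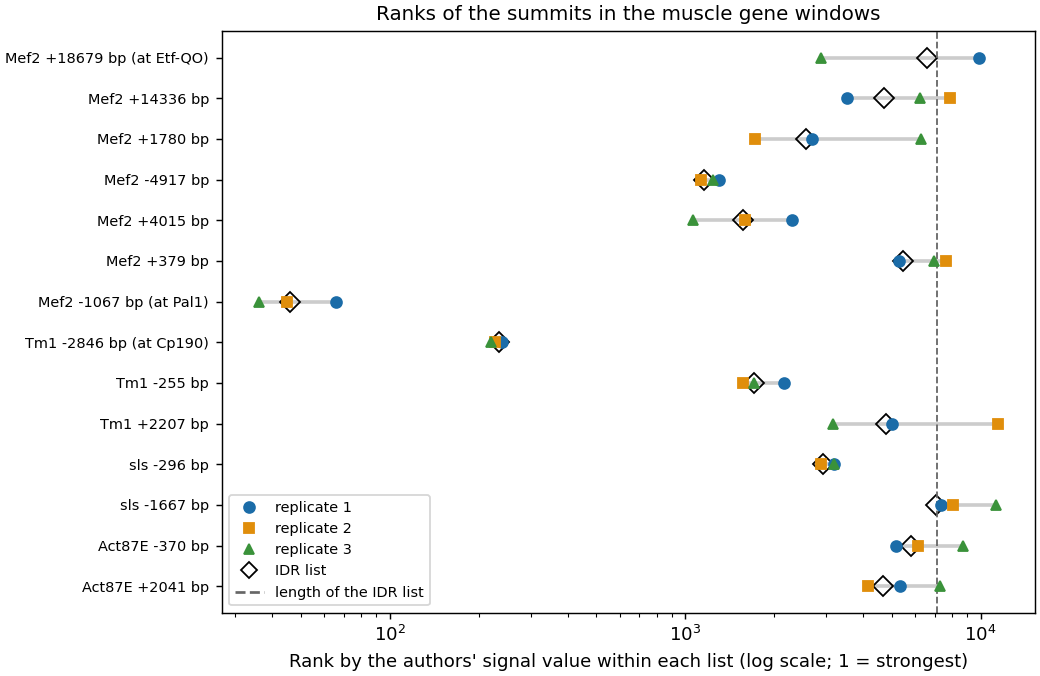
Rank of each of the 14 summits within each list (x axis, log scale, 1 is the strongest), with rows labelled by gene and distance from its nearest own start in bp. Filled symbols are the 3 replicates, open diamonds the IDR list and the dashed line its length of 7089. The summits at Pal1 and Cp190 are the strongest, and those to the right of the dashed line fell outside a replicate's top N.

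By strength, the 14 summits were spread over the whole list. Their median rank was 3803, against 3545 for all IDR peaks, and 7 lay in the stronger part of the list. In all, 7 (50%) were in the top N of all 3 replicates, against 67.4% of the IDR list. These were 3 summits inside Mef2, those at the starts of Tm1 and sls, and those at Pal1 and Cp190. Peaks supported by both other replicates had a median rank of 1571 without replicate 1, 2136 without replicate 2 and 1705 without replicate 3. Sharing was defined by rank, so weak summits were bound to be shared less.

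By position, 4 of the 14 summits lay within 500 bp of a start of the listed gene, 3 in its introns, 1 in a 5′ UTR, 1 in a 3′ UTR and 5 outside the gene. Counting the starts of any gene, 7 (50%) were at a promoter, against 36.2% of all IDR summits, and 21.4% were in introns against 43%. None of the 4 start summits lay within 200 bp of a start of the listed gene, and 12.7% of all coding genes had a summit that close. Of the 2565 promoter summits of the IDR list, counted at the starts of any gene, 61.4% lay within 200 bp. Counted in that way, the summits at Etf-QO, Pal1 and Cp190 were also that close, at 43, 153 and 133 bp. The 61.4% is thus not like for like with the 4 start summits. Of the 35 annotated starts of the 10 genes, 6 had a summit within 500 bp, and these serve 28 of their 97 transcripts. No share over all annotated starts or transcripts is set beside these counts, so they cannot be called high or low. In coding exons lay 0 of the 14 summits and 0.127% of all IDR summits, a share too low to tell them apart.

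Below the IDR list, the pooled list of 30000 peaks held 32 further peaks in the windows, 13 of them at Mef2 and 7 at Tm1. With these, 7 of the 10 genes had a peak in body plus 5 kb, against 76.3% of all coding genes. Tm2, up and bt had none. The Mef2 peak closest to the IDR limit was in an intron, 2612 bp downstream of the first start. It ranked 7513, and 7853, 6487 and 7718 in replicates 1, 2 and 3.

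Set against genes with windows of similar length, Mef2 had more summits than most and bt and Mhc had fewer. The Mef2 count includes summits at the starts of Pal1 and Etf-QO, and the counts of the compared genes include those of neighbours in the same way. The comparison is not matched by chromosome, and bt lies on chromosome 4, where 18.8% of 80 coding genes had a summit in the window. Of the 353 coding genes with windows of 50 to 100 kb, 20.4% had as many summits as Mef2 or more, 60.9% as many as sls or more, and 23.8% had none, as bt. Of the 552 with windows of 30 to 50 kb, 38.9% had as many as Tm1 or more and 27.4% had none, as Mhc. Among 1507 windows of 15 to 20 kb, 39% had none, as Tm2 and up. In the shortest windows, 54.7% of 10461 genes had none, as Act57B and Act88F, and 20.3% had 2 or more, as Act87E. None of the 10 genes thus stood outside the range of coding genes of its length.

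**Figure D3:**
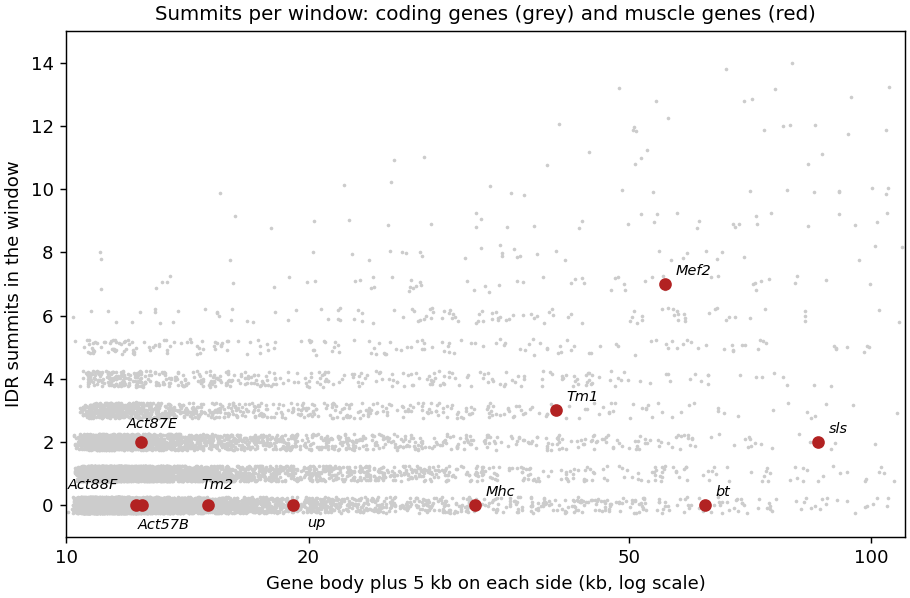
IDR summits in the body plus 5 kb (y axis) against the length of that window (x axis, kb, log scale) for coding genes (grey points, spread vertically for visibility) and the 10 muscle genes (red). Mef2 has 7 summits and 6 of the genes have 0, values that many grey genes of similar length share. The 92 coding genes beyond 110 kb or 15 summits are not drawn.

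The 14 summits were about as rich in A and T as the rest of the IDR list. In the 100 bp around the summit A and T made up 66.8% ± 11.4 (SD over 14 summits), against 67.8% over all IDR summits. At the replicates' own top N summits in these windows the share was 67.4%, 72.2% and 66.6% in replicates 1, 2 and 3, or 68.7% ± 3 (SD, n = 3). It was 61% in windows 500 bp to each side, against 56.4% beside all IDR summits. The range was wide. Act87E, with 82% at the start summit, Cp190 (81%) and the Tm1 start (80%) were highest. The 3 lowest were all in exons of Mef2, with 43% at the summit in the 5′ UTR of Mef2-RG, 50% at the one near the first start and 54% in the 3′ UTR.

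Composition near the starts did not separate the genes with a start summit from those without. The richest 100 bp within 500 bp of a start held 75% A and T at Mef2, 82% at Tm1, 71% at sls and 88% at Act87E. It held 88% at Tm2, 79% at Mhc, 83% at Act57B, 80% at Act88F, 83% at up and 80% at bt. The groups overlap. The median was 80% over 2724 coding genes with a summit at a start and 77% over 11220 without.

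**Figure D4:**
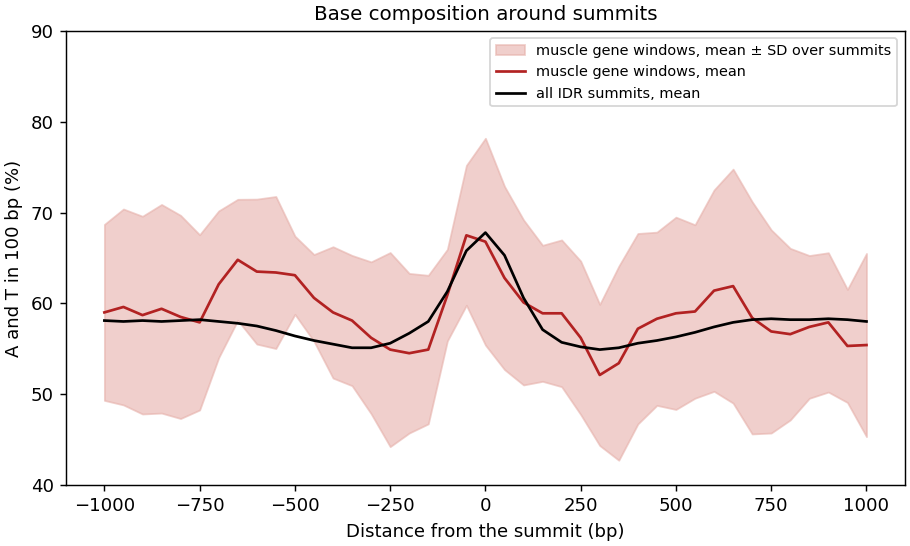
Share of A and T in 100 bp windows (y axis, %) by distance from the summit (x axis, bp). The red line and band are the mean and SD over the 14 summits in the muscle gene windows and the black line is the mean over all 7089 IDR summits. The black line is highest at the summit, at 67.8%, and the red line reaches 66.8% there and its highest value, 67.5%, 50 bp to its left.

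Known short motifs were looked for, on either strand, in 200 bp centred on each of the 14 summits, and a match says nothing about which protein was bound. The Mef2 consensus was found at 1 of the 14, the Act87E start summit, where it is in capitals in the sequence above, and at 13.2% of all IDR summits. The same window held GGAATG, the string of Scalloped, a TEAD-family partner of Vestigial in flight muscle, which 6.6% of all IDR summits held. The Mhc window printed above, which has no summit, also held this string, not in capitals there. TATAAA was at 3 of the 14 (21.4%, against 38.8% of all). At the Tm1 start it was found on both strands at 2 places as overlapping matches. The E-box CANNTG, bound by bHLH factors such as Nautilus and Twist, was at 9 (64.3%, against 56.4%) and GAGAG at 2 (14.3%, against 21.9%). The CArG box of the serum response factor was at 1, the Pal1 summit, and at 1.04% of all. The DRE string TATCGATA and a run of AAAAAAAA were at 0, and at 1.71% and 19.5% of all IDR summits.

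Other muscle genes, 62 in 8 lists by role, were called at about the share of all coding genes. By the 500 bp rule 14 (22.6%, against 19.5%) had a summit at a start, and 13.7 ± 2.08 (SD, n = 3) did in the replicates, from 12 to 16. The lists were compiled with earlier results of these data known. The 19.5% is not matched to any of these lists for the number of starts or the length of the genes. None of 5 thick filament genes and none of 6 calcium handling genes was called in the IDR list. Lists this small cannot show whether a count of 0 differs from 19.5%. Replicate 1 called 1 calcium handling gene in its top N, and replicates 2 and 3 called 0. With all pooled peaks SERCA, RyR, Itpr, Calx and Cam were called, Ca-alpha1D was not, and no thick filament gene was. Of 9 other thin filament genes only tmod was called, which encodes tropomodulin, the cap of the actin filament. Its summit lay 409 bp upstream of a start at rank 812, and at 793, 1039 and 761 in replicates 1, 2 and 3.

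Of the Z-disc genes 4 of 8 were called, and of those for giant and cross-linking proteins 2 of 3, beside 19.5% of all coding genes. The called genes are long, with bodies of 18.5 to 106 kb, and the 19.5% is not matched for this. Those of the Z-disc were CAP (rank 1903), an adaptor protein, cher (2548), the filamin, Zasp52 (6737), a PDZ and LIM protein, and Actn (6908), alpha-actinin, the last 2 near the end of the IDR list. Actn ranked 10106, 4889 and 7685 in replicates 1, 2 and 3, and its call was lost whichever replicate was left out. Msp300, a nesprin that links nuclei to the cytoskeleton, had a summit 342 bp upstream of a start at rank 444, and at 392, 459 and 682 in the replicates. Strn-Mlck was at rank 6683, and at 8443, 5512 and 6133 in the replicates, and its call was lost without replicate 2 or replicate 3, which left 1 of 3. Unc-89 is listed as Obsc in the annotation and had a summit in its window but not at a start.

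Of genes for attachment and fusion, 3 of 8 and 2 of 8 were called, again beside 19.5% of all coding genes. Those for attachment were mew (rank 4304), an integrin, rhea (6350), talin, and Tsp (6617), thrombospondin. The rhea summit ranked 5215, 9885 and 6881 in the replicates and that of Tsp 7783, 5904 and 8722. The Tsp call was lost whichever replicate was left out and the rhea call without replicate 1 or replicate 3, so that without either of these mew alone was called. The mew summit was closer to a start of comt. Of the fusion genes, blow had rank 1157 and ranked 1144, 1169 and 1239 in the replicates, and mbc had rank 1409 at a summit closer to Nup98-96. Of 15 muscle regulators, tin, a homeobox gene of the heart and visceral muscle, had rank 406 (429, 396 and 428 in the replicates) and htl, an FGF receptor of the mesoderm, had rank 3080. The cytoplasmic actin Act5C, which is expressed in all cells, had a summit 444 bp upstream of a start at rank 1354 (1524, 1434 and 1304 in the replicates), and Act42A had none in its window. The Act5C summit was closer to a start of lncRNA:CR45668.

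**Figure D5:**
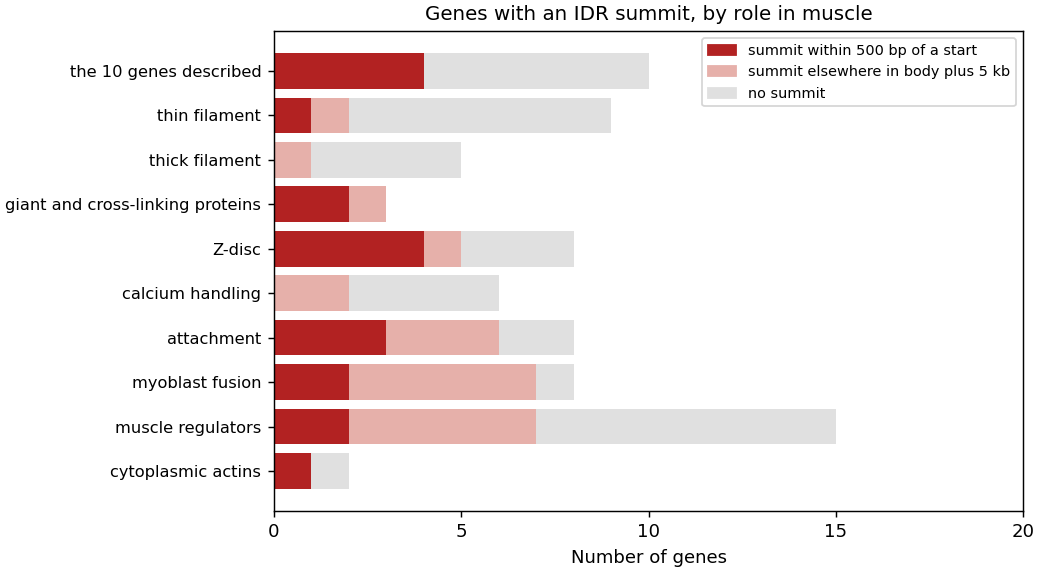
Number of genes (x axis) by role in muscle, with a summit within 500 bp of a start (dark red), with one elsewhere in the body plus 5 kb (pale red) or with none (grey). The 10 genes described are on top, with 4 called and 6 without a summit, and the thick filament and calcium lists have no gene called at a start.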

How the data were processed

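Peaks were called by the authors on the dm6 build from each of the 3 replicate alignments, and from the replicates pooled, each with 1 control, per the file inventory deposited with the libraries. No source used here names the aligner, the caller of the peaks or the IDR cut-off. Each deposited peak carries the authors' signal value, whose scale is not stated, so it was used only to rank peaks within a list. The control and the lists on dm3 were not analysed here. Each replicate list and the pooled list hold 30000 peaks, and the 7089 IDR peaks are the 7089 strongest of the pooled list, so no error belongs to the IDR list itself. An SD is over the 3 replicates, unless said to be over summits.

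Summits were placed on Ensembl release 115 genes (BDGP6.54, dm6 coordinates, 1-based) without transposable elements. An IDR summit was found in a replicate when it lay inside a peak there, and took the rank of the strongest such peak. Positions were computed with Python 3.11.15 and numpy 2.4.6, on scripts tested on simulated summits. Members, gene lists and strings were chosen with earlier results of these data known. The genes named are the 10 listed, genes of the lists with a start summit, and genes whose start lies within 500 bp of a summit and nearer than the listed gene's. CG4338, Pdrg1, CG17928, comt, Nup98-96, lncRNA:CR45668, Obsc, Act79B and Act42A were named after their values were seen. Alternatives covered the peak list, the distance to a start, the flank, the replicates required and the overlap rule.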

Additional observations from a re-analysis of the deposited data

How the results depend on the processing

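No paired analysis was possible because there is 1 group. The count of 4 genes with a start summit ranged from 2 to 3 when each replicate was left out in turn, and was 2 with the stronger IDR peaks (those above the median rank), 2 with peaks that every replicate had in its top N, 0 with a distance of 200 bp, and 5 with all pooled peaks. The 4 genes with a summit in their window became 2 with no flank and 7 with all pooled peaks (3 to 4 with a replicate left out, and 5 with a flank of 10 kb). The 14 summits became 7 with no flank, 7 with the stronger peaks, 7 with peaks in every top N, 9 when the nearest start had to be the gene's own, and 46 with all pooled peaks, and 7 to 10 with a replicate left out. Per kb they fell from 0.0413 to 0.0283 with no flank. The 7 summits shared by the top N of all 3 replicates became 13 when each full list was read (7 to 10 with a replicate left out), and the median rank of 3803 became 1571 to 2136 with a replicate left out. The 14 called genes of the muscle lists became 32 with all pooled peaks, 8 with the stronger peaks and 4 within 200 bp (10 to 11 with a replicate left out). Summits in introns went from 3 to between 2 and 3. Fewer peaks enter most of these settings by construction. The 1000 bp distance, 2 kb and 10 kb flanks, the nearest-start rule for start summits, the 100 bp overlap rule and the 200 bp window for base composition kept each value within 1.5 times, or within 1 SD of the replicates. Depth is unknown.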

Other observations

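Of the 62 genes in the muscle lists, 33 (53.2%) had an IDR summit in the body plus 5 kb, against 50.8% of all coding genes. The genes named here were chosen after their values were seen. Long genes have long windows, and the counts below are not set against genes of the same length. The window of nau, the MyoD homologue, with a body of 5.54 kb, held 3 summits with the strongest at rank 245, and that of Mlp84B, a LIM protein of the Z-disc with a body of 4.88 kb, held 1 at rank 251. The window of twi (body 63 kb) held 7 summits, that of hth (132 kb) held 18, and that of kirre (394 kb), an adhesion gene of myoblast fusion, held 27. The strongest summits of twi, hth and kirre ranked 2017, 2126 and 259. Of the 5 thick filament genes, Mlc2 had 2 summits in its window, the stronger at rank 1433, and Mlc1, Prm, Mf and fln had none. Of the 9 thin filament genes, tmod had 4 and Lasp had 2, the stronger of the Lasp pair at rank 3086, and the other 7, wupA among them, had none.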
